A study of Danio rerio with 12 samples.

Results

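Sorted pericytes of the adult zebrafish kidney were compared with sorted sinusoidal endothelium of the same organ. The libraries compared are the 2 libraries whose titles carry pdgfrb and whose cell type is given as pericytes, and the 2 libraries whose titles carry Ac-LDL-hi, for strong uptake of acetylated lipoprotein of the low-density class, and whose cell type is given as sinusoids. They make up 4 of the 12 libraries in the series, whose title names the blood-forming niche of the kidney as its subject. All 4 came from adult fish recorded as wild type, with cells sorted from the kidney and no treatment recorded. The labels do not say which antibody, reporter line or gate was used, whether fish were pooled, or whether the replicates came from separate animals. P-values therefore measure the spread between these libraries, which may be technical.

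In zebrafish the kidney marrow is the adult site of blood formation, and its blood cells lie among sinusoidal vessels and stromal cells. Pericytes are mural cells that sit on the outer face of small vessels and depend on PDGF receptor beta, whose ligand is made by endothelium. Sinusoidal endothelial cells line wide, thin-walled vessels and clear modified lipoproteins, hyaluronan and other waste through stabilins, the mannose receptor and a large lysosomal apparatus, and Ac-LDL uptake is a classical assay of that scavenging.

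Libraries were made by the Quartz-seq type of protocol, in which messenger RNA is primed with oligo-dT, tailed and amplified by PCR, with no molecular identifiers described. Levels are the CPM values as deposited, which are read counts scaled to the same total in each library, and each pair of values is given in the order replicate 1, replicate 2. The whole reads behind the CPM values came to 7006341 and 6984492 in the pericyte libraries and 13372200 and 16242092 in the sinusoid libraries, so that 3 reads correspond to 0.428, 0.43, 0.224 and 0.185 CPM. Libraries were compared on log2(CPM + 1) after TMM scaling, a rescaling of totals explained below. Across tested genes, Pearson's r was 0.896 between the pericyte libraries, 0.899 between the sinusoid libraries and 0.638 to 0.671 between libraries of different groups. These are correlations across genes, which are not independent replicates. On that scale, replicates differed by more than 4-fold at 950 genes in pericytes and at 1053 genes in sinusoids. Genes above 0 numbered 18890 and 18122 in the pericyte libraries and 20626 and 16474 in the sinusoid libraries. Sinusoid replicate 2 thus had the most reads and the fewest genes read.

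Pericytes and sinusoids differed at 2332 of the 14854 genes that had at least 1 CPM in at least 2 of the 4 libraries, which is 15.7% of the tested genes. Of these, 1492 genes (10%) were higher and 840 genes (5.66%) were lower in pericytes. The counts of each gene list below are to be read beside these shares. A gene is called higher or lower here when limma's moderated test on log2(CPM + 1), after TMM scaling (a rescaling of library totals that limits the weight of a few abundant genes), gave a Benjamini-Hochberg adjusted p under 0.05 over all tested genes. Log2 differences are pericytes minus sinusoids with their standard error, from 2 libraries against 2, and they understate the change of genes at low levels. The 2 groups did not overlap at 8824 tested genes (59.4%), with pericytes above at 27.8% and sinusoids above at 31.6%. Many genes named below were chosen for a call or a large difference, so a lack of overlap among them is no separate support. At 115 genes both pericyte libraries held at least 10 CPM while both sinusoid libraries were at or under the level of 3 reads, and the reverse held for 24 genes. Of the 2332 calls, 883 held under every one of the 13 other settings that tested them, and no call changed sign under any of these settings. A gene called from 2 against 2 libraries has little room to change sign when the same libraries are reused. With 1 library left out, a gene needed 1 CPM in 2 of the other 3, so a gene at under 1 CPM in the opposite group was no longer tested. Of the 1492 genes higher in pericytes, 617 were untested without a pericyte replicate, while 342 and 292 were tested and lost without replicate 1 or 2. Of the 840 lower genes, 191 were untested without a sinusoid replicate. None of the 840 was untested without a pericyte replicate, so the lower calls lost there were tested and did not pass.

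**Figure D1:**
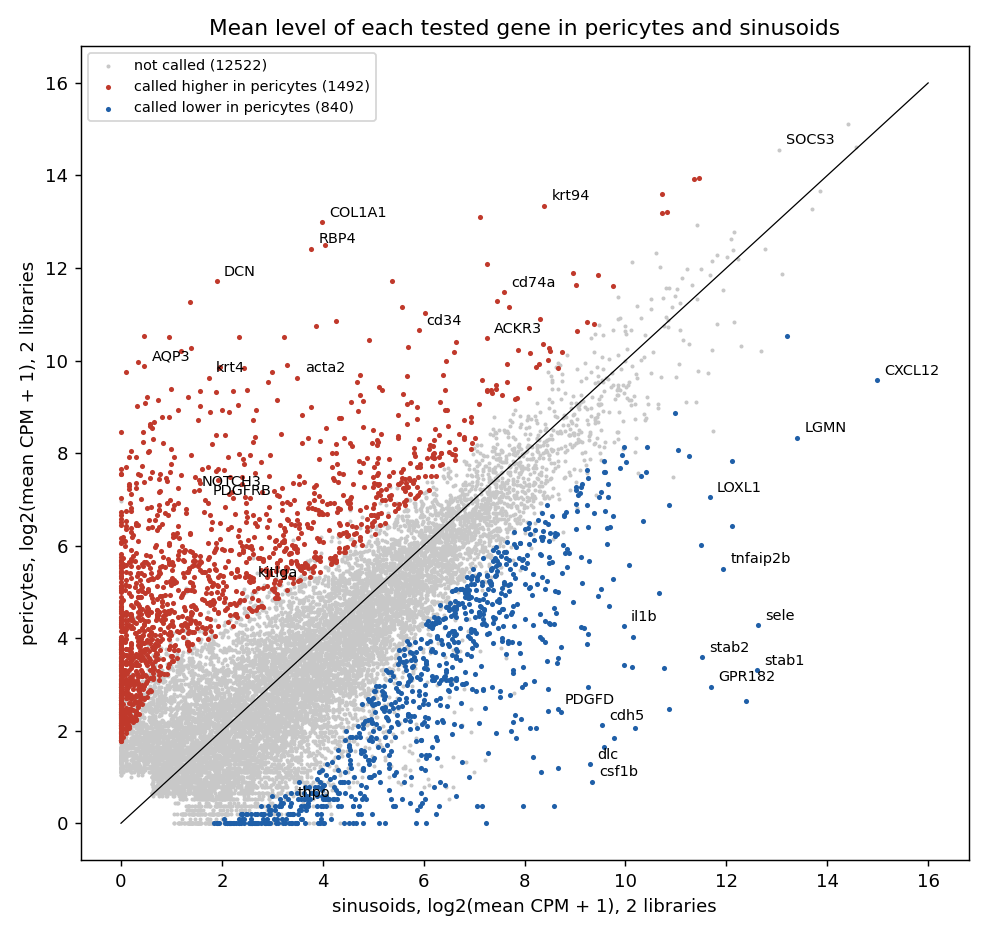
Mean level of each tested gene in the 2 sinusoid libraries (x axis) and the 2 pericyte libraries (y axis), both as log2(mean CPM + 1). Red points are the 1492 genes called higher in pericytes, blue points the 840 called lower, grey points the rest, and the line marks equal levels. DCN and COL1A1 lie far above the line, and stab1, GPR182 and sele lie far below it.

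The 10 named genes with the largest differences towards pericytes were taken from called genes whose groups did not overlap. They included the matrix genes DCN, THBS3, COL5A2 and COL1A1. DCN (ENSDARG00000012066), which encodes the collagen-binding proteoglycan decorin, was at 3222 and 3483 CPM in pericytes against 4.94 and 0.49 CPM in sinusoids, a log2 difference of 10.32 ± 0.57 (adjusted p = 0.000267). COL1A1 (ENSDARG00000035809), a chain of type I collagen, was at 8486 and 7778 CPM in pericytes against 19.97 and 9.73 CPM in sinusoids, a 548-fold ratio of means (log2 9.24 ± 0.36, adjusted p = 0.000216). MYOC (ENSDARG00000021789), the secreted protein myocilin, was at 1002 and 989 CPM in pericytes against 0.45 and 0.060 CPM in sinusoids, a log2 difference of 9.77 ± 0.39 (adjusted p = 0.000216). Each of these was abundant in both pericyte libraries and low in both sinusoid libraries. The others were a copy of THBS3, COL5A2, a copy of CRABP2, a copy of AQP3, a copy of LRP1, and the uncharacterised genes si:ch211-251b21.1 and si:ch211-106h4.12. The first of that pair stood at 1087 and 3829 CPM in pericytes against 3.14 and 0 CPM in sinusoids, so its pericyte libraries themselves differed severalfold.

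The 10 with the largest differences towards sinusoids were led by scavenging and endothelial genes. MRC1 (ENSDARG00000102100), the mannose receptor, was at 6930.0 and 3788 CPM in sinusoids against 6.14 and 4.3 CPM in pericytes, a log2 difference of -9.55 ± 0.36 (adjusted p = 0.000216). GPR182 (ENSDARG00000036616), a G protein-coupled receptor of endothelium, was at 3147 and 3478 CPM in sinusoids against 8.85 and 4.58 CPM in pericytes, a log2 difference of -8.65 ± 0.42 (adjusted p = 0.000216). The remaining ones were stab1, stab2, csf1b, plvapa, dlc, sele, vwf and myrfl, a relative of the myelin regulatory factor. Myrfl was at 442 and 329 CPM in sinusoids against 0.29 and 0.29 CPM in pericytes, a log2 difference of -8.11 ± 0.43 (adjusted p = 0.000257). These 10 were also taken from called genes without overlap, so the separation of the groups was set by the choice.

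Markers of pericytes and other mural cells were mostly higher in the libraries labelled pericytes. Their summed level differed less, at 983 and 1075 CPM in pericytes against 545 and 906 CPM in sinusoids. Of 28 members, 18 were tested, of which 12 were higher and 2 lower in pericytes, with a median log2 difference of 3.26 beside 0.00 over all tested genes. PDGFRB, the receptor named in the titles of these libraries, was at 125 and 124 CPM in pericytes against 1.2 and 3.14 CPM in sinusoids, a log2 difference of 5.48 ± 0.55 (adjusted p = 0.00205); it checks the sort and is not a finding. NOTCH3, the Notch receptor of mural cells, was at 154 and 135 CPM in pericytes against 2.92 and 0.55 CPM in sinusoids, a log2 difference of 6.04 ± 0.54 (adjusted p = 0.00138). RGS5, a regulator of G protein signalling used as a pericyte marker, was at 58.4 and 33.5 CPM in pericytes against 0.97 and 2.77 CPM in sinusoids, a log2 difference of 4.15 ± 0.67 (adjusted p = 0.0109). All 3 separated the groups without overlap.

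ABCC9, the regulatory subunit of the potassium channel of mural cells, was at 39.2 and 36.8 CPM in pericytes against 0 and 1.11 CPM in sinusoids, a log2 difference of 4.79 ± 0.69 (adjusted p = 0.00742), a call that edgeR on the whole reads did not make. KCNJ8, the pore of the same channel, was read at 10.6 and 11.6 CPM in pericytes and at 0 in both sinusoid libraries. Its ratio of means was at least 49.5-fold against a level of 3 reads per library. The KCNJ8 call was lost without the filter on low values. Both channel subunits were therefore close to absent from the sinusoid libraries. The markers did not all follow this direction. The paralogue rgs5b was at 264 and 426 CPM in pericytes against 275 and 568 CPM in sinusoids, with overlapping groups (log2 -0.07 ± 0.56, adjusted p = 0.944). MCAM, an adhesion molecule found on both mural and endothelial cells, was at 169 and 262 CPM in sinusoids against 5.71 and 1.43 CPM in pericytes and was lower in pericytes (log2 -5.58 ± 0.63, adjusted p = 0.00329). EPAS1, a hypoxia-inducible factor of both cell types, is held in 2 copies that were called in opposite directions. The copy ENSDARG00000057671 was lower in pericytes, at 1.14 and 1.15 CPM in pericytes against 17.9 and 23.6 CPM in sinusoids (log2 -3.21 ± 0.67, adjusted p = 0.0244), a call lost with no filter, without pericyte replicate 1 and without sinusoid replicate 2. The copy ENSDARG00000008697 was higher in pericytes, at 19.6 and 16.5 CPM in pericytes against 1.72 and 2.34 CPM in sinusoids (log2 2.77 ± 0.64, adjusted p = 0.0327), a call lost with no filter, under edgeR and without either pericyte replicate. The number of mural markers called higher fell to 5 and 6 without pericyte replicate 1 or 2. In each of these, 3 members called with all 4 libraries were not tested.

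Contractile genes were higher in pericytes in part. Of 30 members, 22 were tested, of which 9 were higher and none lower (limma; 0 lower at an unadjusted p under 0.05, 0 by edgeR and 0 by DESeq2), with a median of 1.66. The smooth muscle actin gene acta2 was at 1052 and 525 CPM in pericytes against 13.5 and 7.02 CPM in sinusoids, a log2 difference of 6.27 ± 0.44 (adjusted p = 0.0006). Transgelin is held in a pair of copies with the symbol TAGLN, between which reads may be split. The copy ENSDARG00000045408 was at 180.3 and 204 CPM in pericytes against 1.2 and 0.74 CPM in sinusoids, a log2 difference of 6.75 ± 0.45 (adjusted p = 0.000496). The copy ENSDARG00000033466 was at 157 and 317 CPM in pericytes against 203 and 373 CPM in sinusoids, with overlapping groups (log2 -0.14 ± 0.56, adjusted p = 0.892). LMOD1, a smooth muscle actin nucleator, was at 59.5 and 39.09 CPM in pericytes against 0.60 and 0.49 CPM in sinusoids for ENSDARG00000056111, a log2 difference of 5.10 ± 0.61 (adjusted p = 0.00395). MYLK, the myosin light chain kinase, was at 34 and 9.02 CPM in pericytes against 0.15 and 0 CPM in sinusoids for ENSDARG00000004753, a log2 difference of 4.22 ± 0.81 (adjusted p = 0.0187), a call lost without the filter on low values. The first TAGLN copy, LMOD1 and MYLK were near 0 in the sinusoid libraries, where acta2 kept a low level. DES, which encodes the muscle filament desmin, was at 3.28 and 3.15 CPM in pericytes against 1.05 and 0.43 CPM in sinusoids for ENSDARG00000058656 and did not pass the test (log2 1.41 ± 0.57, adjusted p = 0.139). Without pericyte replicate 1 or 2 the number called higher was 5 in each case. In each of these, 3 members called with all 4 libraries were not tested.

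**Figure D2:**
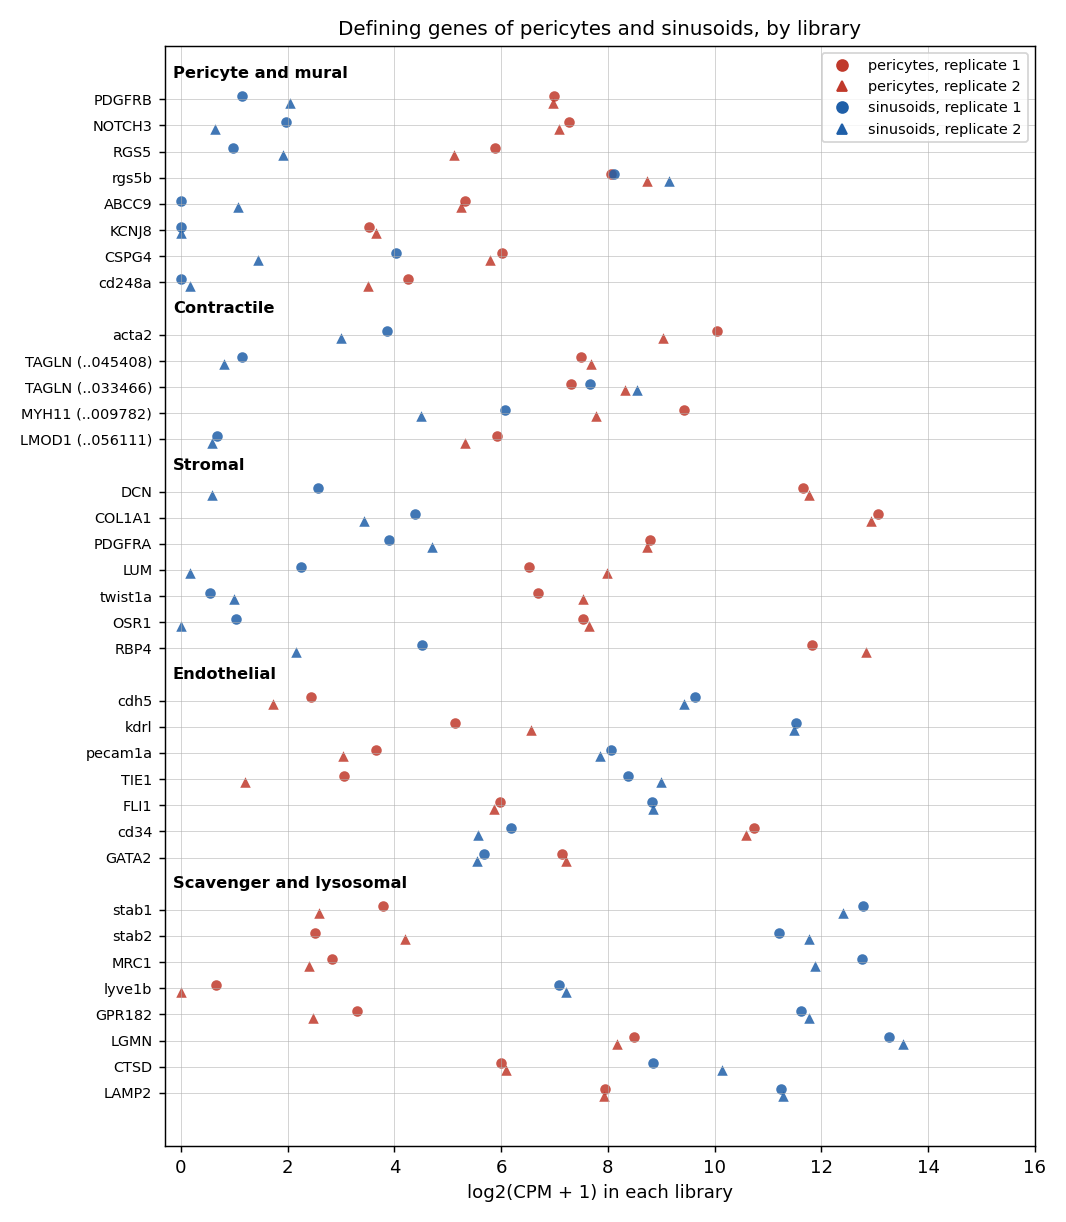
Level of defining genes in each of the 4 libraries, as log2(CPM + 1), with pericytes in red, sinusoids in blue, replicate 1 as circles and replicate 2 as triangles. Mural, contractile and stromal genes lie to the right in pericytes, except rgs5b and 1 TAGLN copy, whose groups overlap, and endothelial and scavenger genes lie to the right in sinusoids, except cd34 and GATA2.

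Genes of the extracellular matrix, the collagens and associated proteins that fibroblast-like stroma secretes, were mostly higher in pericytes. Of 64 members, 58 were tested, of which 40 were higher and 1 lower in pericytes, with a median log2 difference of 4.02. COL5A2, a chain of type V collagen, was at 1150.4 and 1307 CPM in pericytes against 3.22 and 0 CPM in sinusoids, a log2 difference of 9.42 ± 0.62 (adjusted p = 0.000482). THBS3, a thrombospondin, was at 1604 and 1358 CPM in pericytes against 0.75 and 0 CPM in sinusoids for the copy ENSDARG00000077641, a log2 difference of 10.27 ± 0.41 (adjusted p = 0.000216). LUM, the proteoglycan lumican, was at 91.3 and 251 CPM in pericytes against 3.74 and 0.12 CPM in sinusoids, a log2 difference of 6.24 ± 0.79 (adjusted p = 0.00488). In bulk libraries a higher share of matrix-producing cells and a higher level per cell cannot be told apart. The exception was LOXL1, a lysyl oxidase that cross-links elastin, which was at 2830.2 and 3691 CPM in sinusoids against 159 and 102 CPM in pericytes, a log2 difference of -4.49 ± 0.45 (adjusted p = 0.00201). LOXL1 was high in both sinusoid libraries and present at a lower level in both pericyte libraries. The number of matrix genes called higher was 23 without pericyte replicate 1 and 26 without pericyte replicate 2. In each of these, 13 members called with all 4 libraries were not tested.

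Both copies of fibronectin, FN1, were among the matrix genes higher in pericytes. The copy ENSDARG00000006526 was at 3885 and 2809.9 CPM in pericytes against 48.6 and 32.3 CPM in sinusoids, a log2 difference of 6.51 ± 0.35 (adjusted p = 0.000257). The copy ENSDARG00000019815 was at 1213 and 713 CPM in pericytes against 10.5 and 7.02 CPM in sinusoids, a log2 difference of 6.75 ± 0.38 (adjusted p = 0.000286). SPARC, a collagen-binding matrix glycoprotein, was at 1359.6 and 2050.0 CPM in pericytes against 20.8 and 6.4 CPM in sinusoids, a log2 difference of 7.2 ± 0.48 (adjusted p = 0.000485). The groups were far apart for all 3 rows, and the ranking of the fibronectin copies is uncertain where their reads could be shared.

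Basement membrane genes, whose products lie between endothelium and pericyte, were also mostly higher in pericytes. Of 27 members, 22 were tested, of which 16 were higher and 1 lower, with a median of 3.88. Nidogens link laminin to type IV collagen. The NID1 copy ENSDARG00000068710 was at 719 and 571 CPM in pericytes against 1.94 and 2.03 CPM in sinusoids, a log2 difference of 7.88 ± 0.38 (adjusted p = 0.000216). The second copy, ENSDARG00000103129, was at 155 and 67.6 CPM in pericytes against 0.37 and 0.49 CPM in sinusoids, a log2 difference of 6.27 ± 0.62 (adjusted p = 0.00191). NID2 was at 307 and 186 CPM in pericytes against 1.12 and 2.09 CPM in sinusoids, a log2 difference of 6.66 ± 0.50 (adjusted p = 0.00073). All nidogen rows were high in pericytes and at about 2 CPM or less in sinusoids, which in each row is above the level of 3 reads. The laminin chain lamc3 was at 101 and 118 CPM in pericytes against 2.84 and 0.060 CPM in sinusoids, a log2 difference of 5.96 ± 0.67 (adjusted p = 0.00318). COL4A1, a chain of type IV collagen, was at 148 and 21.5 CPM in pericytes against 101 and 55.7 CPM in sinusoids, with overlapping groups (log2 -0.24 ± 0.82, adjusted p = 0.877). HSPG2, the proteoglycan perlecan, was the member called lower, at 113 and 74.6 CPM in sinusoids against 32.8 and 29.9 CPM in pericytes (log2 -1.36 ± 0.35, adjusted p = 0.0457). That call was lost with no filter, under edgeR, and without either pericyte replicate or sinusoid replicate 1.

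Transcription factors of stromal mesenchyme were higher in pericytes, with 21 of 32 tested members higher (51 in all) and none lower (limma; 0 lower at an unadjusted p under 0.05, 0 by edgeR and 0 by DESeq2), and a median of 3.13. OSR1, a factor of kidney and connective tissue mesenchyme, was at 185 and 199 CPM in pericytes against 1.05 and 0 CPM in sinusoids, a log2 difference of 7.23 ± 0.54 (adjusted p = 0.000697). Its relative OSR2 was at 121 and 120.4 CPM in pericytes against 0 and 0.25 CPM in sinusoids, a log2 difference of 6.83 ± 0.54 (adjusted p = 0.000842). The factor twist1a was at 102 and 185 CPM in pericytes against 0.45 and 0.99 CPM in sinusoids, a log2 difference of 6.44 ± 0.57 (adjusted p = 0.00129). These 3 genes were at about 1 CPM or less in the sinusoid libraries. The gene wt1b, a homologue of the Wilms tumour factor that is expressed in podocytes and in some mesenchyme, was at 62.5 and 82.2 CPM in pericytes against 0.070 and 0.25 CPM in sinusoids, a log2 difference of 6.05 ± 0.60 (adjusted p = 0.00195). Without pericyte replicate 1 or 2, 4 and 6 members were called higher. In each of these, 13 members called with all 4 libraries were not tested.

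Genes of lipid and retinoid handling were called higher in pericytes more than lower. Of 33 tested members of the lipid and retinoid list (53 in all), 14 were higher and 3 lower in pericytes, with a median of 1.56. RBP4, the plasma retinol carrier, was at 3619 and 7325 CPM in pericytes against 21.8 and 3.45 CPM in sinusoids, a log2 difference of 9.17 ± 0.69 (adjusted p = 0.000717). CRABP2, a cellular carrier of retinoic acid, is held in a pair of copies. The copy ENSDARG00000073978 was at 842 and 886 CPM in pericytes against 0.15 and 0 CPM in sinusoids, a log2 difference of 9.75 ± 0.40 (adjusted p = 0.000216). The copy ENSDARG00000030449 was at 465 and 239.7 CPM in pericytes against 0.52 and 0.18 CPM in sinusoids, a log2 difference of 8.08 ± 0.51 (adjusted p = 0.000435). DHRS3, which reduces retinaldehyde to retinol, was at 150.2 and 198 CPM in pericytes against 0.97 and 0 CPM in sinusoids for ENSDARG00000044803, a log2 difference of 7.10 ± 0.55 (adjusted p = 0.000795). In all 4 rows the pericyte libraries were far higher, and in all but RBP4 the sinusoid libraries were under 1 CPM. The apolipoprotein gene apoa1b went the other way, at 93.8 and 57.3 CPM in sinusoids against 0 and 3.29 CPM in pericytes (log2 -5.05 ± 0.80, adjusted p = 0.0106), a call not made by edgeR or DESeq2. The cholesterol exporter abca1b was lower in pericytes, at 97.9 and 87.4 CPM in sinusoids against 21.8 and 21.1 CPM in pericytes (log2 -1.90 ± 0.37, adjusted p = 0.0196), a call lost without either pericyte replicate. Without pericyte replicate 1, 1 member was lower, and without sinusoid replicate 2, 5 were. The list's count of higher members was 5 and 6 without pericyte replicate 1 or 2. In each of these, 7 members called with all 4 libraries were not tested.

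**Figure D3:**
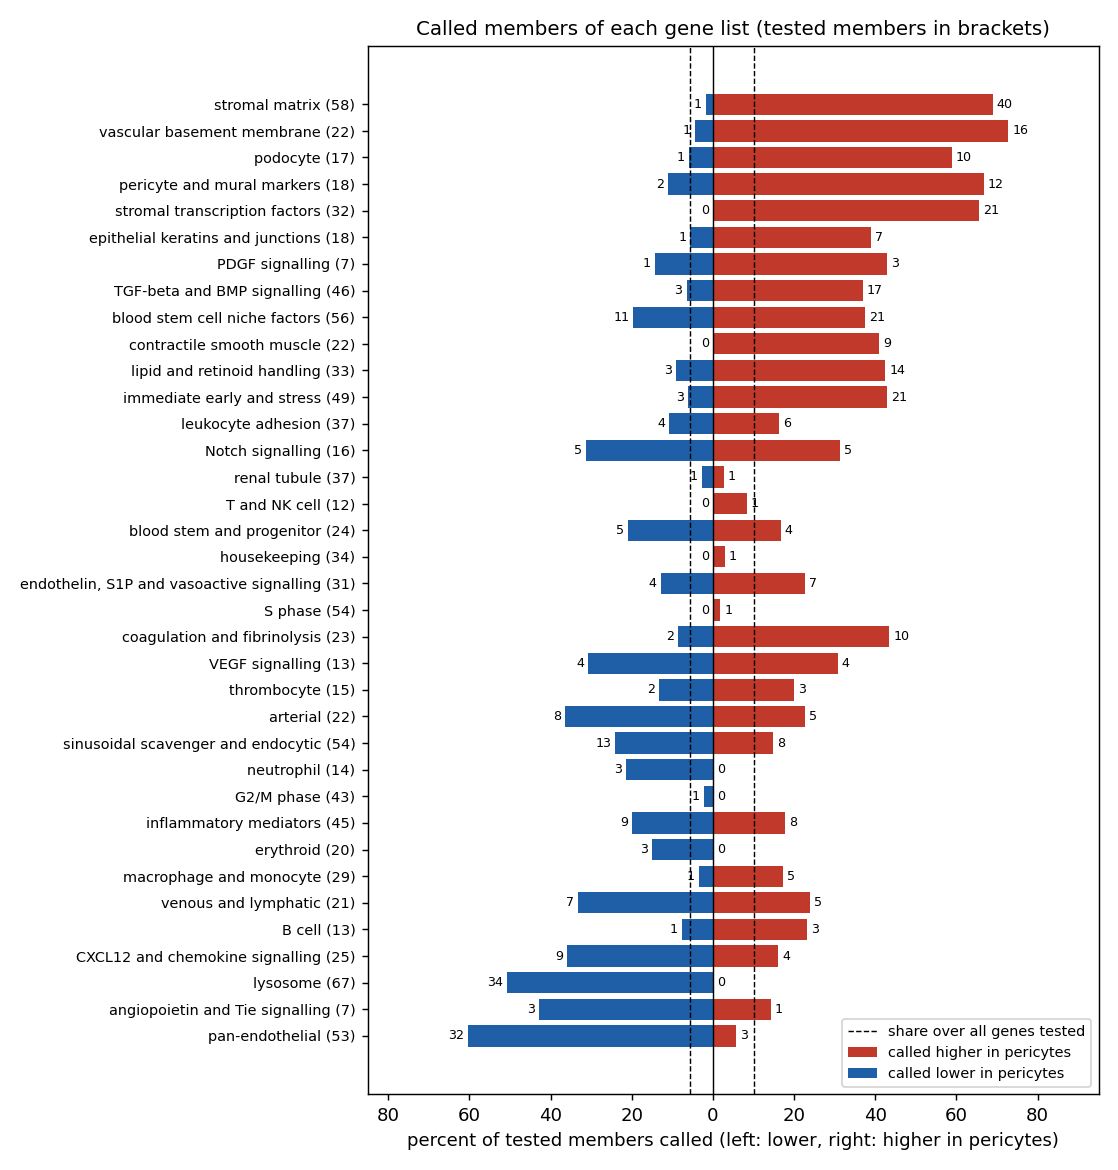
Percent of the tested members of each gene list called higher (red, to the right) or lower (blue, to the left) in pericytes, ordered by the list's median log2 difference, with the number called at each bar and the number tested in brackets. Dashed lines mark the shares over all tested genes, 10% higher and 5.66% lower.

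Endothelial genes were higher in the libraries labelled sinusoids. Of 62 members, 53 were tested, of which 32 were lower and 3 higher in pericytes, with a median log2 difference of -2.76. The endothelial cadherin cdh5 was at 795 and 685 CPM in sinusoids against 4.42 and 2.29 CPM in pericytes, a log2 difference of -7.31 ± 0.40 (adjusted p = 0.000267). VEGF receptor kdrl was at 2950.4 and 2863 CPM in sinusoids against 34.2 and 92.9 CPM in pericytes, a log2 difference of -5.50 ± 0.53 (adjusted p = 0.00178). The gene plvapa, which builds the diaphragms of fenestrated endothelium, was at 1573 and 2165 CPM in sinusoids against 7.56 and 1.57 CPM in pericytes, a log2 difference of -8.48 ± 0.62 (adjusted p = 0.000697). All 3 separated the groups without overlap. Von Willebrand factor, vwf, was at 961 and 786 CPM in sinusoids against 2.28 and 2.86 CPM in pericytes, a log2 difference of -7.79 ± 0.36 (adjusted p = 0.000216). CLDN5, the tight junction protein of endothelium, was at 747 and 771 CPM in sinusoids against 2.28 and 2.0 CPM in pericytes for ENSDARG00000014059, a log2 difference of -7.78 ± 0.38 (adjusted p = 0.000216). Both stood at a few CPM in each pericyte library.

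The 3 members of the endothelial list called higher in pericytes were cd34, DUSP5 and GATA2. Which cells they were read from was not tested. The sialomucin cd34, a marker of endothelium, blood progenitors and some fibroblasts in mammals, was at 1696 and 1539.8 CPM in pericytes against 71.5 and 46.4 CPM in sinusoids, a 27.5-fold ratio of means (log2 4.95 ± 0.33, adjusted p = 0.000482). DUSP5, a phosphatase of MAP kinases, was at 116 and 204 CPM in pericytes against 2.39 and 6.16 CPM in sinusoids, a log2 difference of 5.10 ± 0.60 (adjusted p = 0.00381). GATA2, a transcription factor of endothelium and blood stem cells, was at 140.4 and 147 CPM in pericytes against 50.3 and 46 CPM in sinusoids, a log2 difference of 1.72 ± 0.34 (adjusted p = 0.0216). Its call was lost with no filter and without pericyte replicate 2. All 3 were higher in both pericyte libraries than in both sinusoid libraries. RUNX1, which acts with GATA2 in blood stem cells, was at 6.85 and 3.58 CPM in pericytes against 1.12 and 0.99 CPM in sinusoids and did not pass the test (log2 1.65 ± 0.65, adjusted p = 0.132).

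Scavenger receptors divided between the groups. Of 62 members, 54 were tested, of which 13 were lower and 8 higher in pericytes, with a median of -0.49. The stabilin gene stab1, a receptor for modified lipoproteins and other waste, was at 6992 and 5436 CPM in sinusoids against 12.8 and 5.01 CPM in pericytes, a 696-fold ratio of means (log2 -9.25 ± 0.45, adjusted p = 0.000216). Its paralogue stab2, which also clears hyaluronan, was at 2352 and 3484 CPM in sinusoids against 4.71 and 17.3 CPM in pericytes, a log2 difference of -7.97 ± 0.64 (adjusted p = 0.000842). The hyaluronan receptor lyve1b was at 135 and 148 CPM in sinusoids against 0.57 and 0 CPM in pericytes, a log2 difference of -6.74 ± 0.57 (adjusted p = 0.00111). These receptors were high in both sinusoid libraries and low in both pericyte libraries. Since the sinusoid libraries are titled by Ac-LDL uptake, their scavenger receptors check the sort.

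Other endocytic receptors were on the pericyte side. LRP1, a large receptor for apolipoprotein E and protease complexes, is held in 2 copies. The copy ENSDARG00000097827 was at 1406 and 962 CPM in pericytes against 2.17 and 0.37 CPM in sinusoids, a log2 difference of 9.29 ± 0.46 (adjusted p = 0.000222). The copy ENSDARG00000029146 was at 584 and 385 CPM in pericytes against 10.3 and 0.49 CPM in sinusoids, a log2 difference of 7.05 ± 0.81 (adjusted p = 0.00343). COLEC12, a scavenger receptor with a collectin domain, was at 719.9 and 570.3 CPM in pericytes against 3.74 and 3.57 CPM in sinusoids, a log2 difference of 7.25 ± 0.37 (adjusted p = 0.000229). All 3 rows were high in both pericyte libraries and at about 10 CPM or less in both sinusoid libraries. The count of scavenger genes higher in pericytes was 5 without either pericyte replicate and 5 without sinusoid replicate 2. With a pericyte replicate left out, 2 of the members called higher were not tested.

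Lysosomal genes were lower in pericytes. Of 77 members, 67 were tested, of which 34 were lower and none higher (limma; 3 higher at an unadjusted p under 0.05, 0 by edgeR and 1 by DESeq2), with a median of -1.77. LGMN, the lysosomal protease legumain, was at 9841 and 11801 CPM in sinusoids against 356 and 287 CPM in pericytes, a log2 difference of -4.91 ± 0.47 (adjusted p = 0.00177). TFEC, a transcription factor of the family that controls lysosomal genes, was at 399.6 and 443 CPM in sinusoids against 15.8 and 10.4 CPM in pericytes, a log2 difference of -4.77 ± 0.40 (adjusted p = 0.00103). CTSH, the lysosomal protease cathepsin H, was at 269 and 359.7 CPM in sinusoids against 8.85 and 35.2 CPM in pericytes, a log2 difference of -3.89 ± 0.67 (adjusted p = 0.0135). LAMP2, a structural protein of the lysosomal membrane, was at 2414 and 2469.6 CPM in sinusoids against 246 and 244 CPM in pericytes, a log2 difference of -3.15 ± 0.38 (adjusted p = 0.00422). All 4 were still read in both pericyte libraries, at a lower level than in both sinusoid libraries. The proton pump subunit ATP6V1A in the copy ENSDARG00000076318 was near 0 in pericytes, at 37.6 and 40.5 CPM in sinusoids against 0.57 and 2.29 CPM in pericytes (log2 -4.01 ± 0.67, adjusted p = 0.0123). Leaving out a pericyte replicate gave 24 and 23 members lower. Higher members numbered 1 without sinusoid replicate 1, 2 without pericyte replicate 2 and 2 without sinusoid replicate 2.

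Genes that mark arterial or venous and lymphatic identity in developing vessels were called in both directions. Of 22 tested arterial genes (27 in all), 8 were lower and 5 higher in pericytes, with a median of -0.49. The Notch ligand dlc was at 671 and 577 CPM in sinusoids against 0 and 2.86 CPM in pericytes, a log2 difference of -8.19 ± 0.68 (adjusted p = 0.001). The ephrin EFNB2 in the copy ENSDARG00000074050 was at 35.8 and 42.2 CPM in sinusoids against 0.86 and 0.43 CPM in pericytes, a log2 difference of -4.50 ± 0.64 (adjusted p = 0.00732). GJA5, a gap junction protein of arteries, was at 29.8 and 16.3 CPM in sinusoids for ENSDARG00000040065 and at 0 in both pericyte libraries. As a ratio of means it was at least 53.7-fold lower in pericytes against a level of 3 reads. The arterial members higher in pericytes included NOTCH3 and the Notch target HEY2, at 15 and 18 CPM in pericytes against 1.05 and 0.86 CPM in sinusoids (log2 3.28 ± 0.65, adjusted p = 0.021), whose call was lost with no filter and without either pericyte replicate. Without sinusoid replicate 2, 5 arterial genes were lower, and without pericyte replicate 1 or 2, 2 were higher. In each case some were not tested, 2 of the lower and 1 of the higher.

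Of 21 tested venous and lymphatic genes (25 in all), 7 were lower and 5 higher in pericytes, with a median of -1.17. The endocytic adaptor dab2 was at 1878 and 1580.5 CPM in sinusoids against 5.57 and 12.9 CPM in pericytes, a log2 difference of -7.34 ± 0.45 (adjusted p = 0.000402). FLT4, a receptor of VEGF-C, was at 1065 and 1181 CPM in sinusoids against 9.13 and 9.74 CPM in pericytes, a log2 difference of -6.60 ± 0.36 (adjusted p = 0.000267). On the pericyte side stood CCBE1, which aids the processing of VEGF-C, at 51.4 and 87.2 CPM in pericytes against 4.79 and 0.99 CPM in sinusoids, a log2 difference of 4.49 ± 0.63 (adjusted p = 0.00715). NRP2 in the copy ENSDARG00000096546, a co-receptor of that pathway, was at 94.8 and 54 CPM in pericytes against 0.37 and 0 CPM in sinusoids, a log2 difference of 6.07 ± 0.63 (adjusted p = 0.00227). FLT4 and dab2 were thus high in sinusoids, and CCBE1 and this NRP2 copy in pericytes. Without either pericyte replicate, 2 of this list were higher. Of the other members called higher, 2 were then not tested.

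Transcripts of the list of blood stem cell niche factors were read in both groups, and members were called in both directions. Of 80 members, 56 were tested, of which 21 were higher and 11 lower in pericytes, with a median of 1.67, or 2.2 with the members at 0 in one group set to their bound. CXCL12, a chemokine that holds blood stem cells in place, was at 25164 and 39651 CPM in sinusoids against 855 and 665 CPM in pericytes, a 42.6-fold ratio of means (log2 -5.22 ± 0.63, adjusted p = 0.004). That call was lost without pericyte replicate 1 or 2. The gene was abundant in all 4 libraries, with sinusoids far above pericytes. Its paralogue cxcl12b was on the opposite side, at 49.1 and 18.3 CPM in pericytes against 3.37 and 0 CPM in sinusoids (log2 4.09 ± 0.88, adjusted p = 0.0268), a call lost with no filter, under edgeR and without pericyte replicate 1.

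Kit ligand, which sustains blood progenitors, was read from kitlga at 44.2 and 27.6 CPM in pericytes against 5.31 and 4.49 CPM in sinusoids, a log2 difference of 2.76 ± 0.53 (adjusted p = 0.0187). That call was lost without pericyte replicate 1. Its paralogue kitlgb was at 0 in all 4 libraries. The macrophage growth factor gene csf1b was at 529 and 769 CPM in sinusoids against 0 and 1.72 CPM in pericytes, a log2 difference of -8.48 ± 0.63 (adjusted p = 0.000697). Its paralogue csf1a was at 2.0 and 2.0 CPM in pericytes and at 0 in both sinusoid libraries, and did not pass the test (log2 1.64 ± 0.45, adjusted p = 0.0551). Of the csf1 genes, csf1b was therefore called and csf1a, at a low level, was not. Thrombopoietin, thpo, which sustains blood stem cells and thrombocytes, was at 6.81 and 11.8 CPM in sinusoids against 0.29 and 0.43 CPM in pericytes, a log2 difference of -2.79 ± 0.69 (adjusted p = 0.0402). The thpo call was lost with no filter, with a pseudocount of 5, under edgeR and without pericyte replicate 1 or 2. Interleukin gene il7, a factor for lymphoid cells, was at 17 and 22.3 CPM in pericytes against 2.02 and 0 CPM in sinusoids (log2 3.73 ± 0.76, adjusted p = 0.0227), a call lost with no filter and under edgeR. The gene il34, a ligand of the Csf1 receptor, overlapped between the groups, at 56.5 and 56.3 CPM in pericytes against 62.7 and 106 CPM in sinusoids (log2 -0.37 ± 0.47, adjusted p = 0.645).

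The growth factors with the largest differences towards pericytes were close to absent from sinusoids. ANGPTL1, an angiopoietin-like secreted protein, was at 297 and 229.9 CPM in pericytes against 0.30 and 0 CPM in sinusoids, a log2 difference of 7.96 ± 0.48 (adjusted p = 0.000391). MDK, the growth factor midkine, was at 218 and 263 CPM in pericytes against 0.45 and 0 CPM in sinusoids for ENSDARG00000036036, a log2 difference of 7.76 ± 0.49 (adjusted p = 0.000451). BMP4, a bone morphogenetic protein, was at 118 and 111 CPM in pericytes against 0.15 and 0.86 CPM in sinusoids, a log2 difference of 6.36 ± 0.56 (adjusted p = 0.00125). In all 3 the pericyte libraries were close to each other and the sinusoid libraries were under 1 CPM. On the sinusoid side, E-selectin, sele, which captures rolling leukocytes, was at 5761 and 6818 CPM in sinusoids against 19.1 and 17.8 CPM in pericytes, a 341-fold ratio of means (log2 -8.18 ± 0.38, adjusted p = 0.000216). The niche factors called higher numbered 8 and 10 without pericyte replicate 1 or 2. In each case 9 of those called with all 4 libraries were not tested.

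PDGF ligands and receptors were split between the groups. Of 10 members, 7 were tested, of which 3 were higher and 1 lower in pericytes. PDGFRA, the receptor of fibroblast-type mesenchyme, was at 439 and 422 CPM in pericytes against 13.8 and 25.1 CPM in sinusoids, a log2 difference of 4.61 ± 0.47 (adjusted p = 0.00216). PDGFRL, a receptor-like protein, was at 29.7 and 69.2 CPM in pericytes and at 0 in both sinusoid libraries, at least 221-fold higher as a ratio of means. Of the ligands, PDGFD, which acts through PDGF receptor beta, was at 352 and 455 CPM in sinusoids against 4.57 and 4.44 CPM in pericytes, an 89.5-fold ratio of means (log2 -6.04 ± 0.42, adjusted p = 0.0006). PDGFRB is named in the titles of the pericyte libraries, so its low level in sinusoids only checks the sort. The genes of the classical pericyte-recruiting ligand were not seen at measurable levels: pdgfba was at 0 in all 4 libraries, and pdgfbb was at 0 in both pericyte libraries and at 0 and 0.12 CPM in sinusoids. PDGFC, at 8.99 and 17.8 CPM in pericytes against 3.14 and 1.72 CPM in sinusoids, did not pass the test (log2 2.17 ± 0.69, adjusted p = 0.0783).

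In the angiopoietin and Tie pathway, which steadies endothelium, the receptors were on the sinusoid side. Of 8 members, 7 were tested, of which 3 were lower and 1 higher in pericytes. TIE1 was at 331 and 509.9 CPM in sinusoids against 7.28 and 1.29 CPM in pericytes, a log2 difference of -6.43 ± 0.69 (adjusted p = 0.00262). The angiopoietin receptor tek was at 103 and 76.6 CPM in sinusoids against 11 and 1.43 CPM in pericytes, a log2 difference of -3.92 ± 0.76 (adjusted p = 0.02), a call lost with no filter and under edgeR. The receptor phosphatase ptprb, which acts on Tie receptors, was at 687 and 539.6 CPM in sinusoids against 3.85 and 9.45 CPM in pericytes, a log2 difference of -6.27 ± 0.47 (adjusted p = 0.000697). No overlap between the groups was seen for these 3 genes. ANGPT1, the activating ligand that mural cells supply in mammals, was low in both groups, at 2.57 and 2.0 CPM in pericytes against 5.38 and 2.09 CPM in sinusoids (log2 -0.31 ± 0.66, adjusted p = 0.794). The ligand angpt2b was at 16 and 40.4 CPM in sinusoids against 2.85 and 3.87 CPM in pericytes and did not pass the test (log2 -2.48 ± 0.73, adjusted p = 0.0666). SVEP1, a matrix protein that binds TIE1 in mammals, was higher in pericytes, at 118 and 86 CPM in pericytes against 5.68 and 6.96 CPM in sinusoids (log2 3.95 ± 0.45, adjusted p = 0.00342).

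Among the VEGF genes that passed the test, ligands were higher in pericytes and receptors in sinusoids, except 1 NRP2 copy. Of 15 members, 13 were tested, of which 4 were higher and 4 lower in pericytes, with a median of -0.31. Of the VEGFA copies, ENSDARG00000103542 was at 242 and 212 CPM in pericytes against 29.4 and 20.9 CPM in sinusoids, a log2 difference of 3.3 ± 0.34 (adjusted p = 0.00214). The copy ENSDARG00000034700 was at 46.5 and 122 CPM in pericytes against 7.1 and 5.73 CPM in sinusoids, a log2 difference of 3.52 ± 0.57 (adjusted p = 0.0115). VEGFD was at 12.1 and 23.5 CPM in pericytes against 0.15 and 0 CPM in sinusoids, a log2 difference of 4.16 ± 0.69 (adjusted p = 0.0123). These 3 ligand rows were each higher in both pericyte libraries. The receptor KDR was at 175 and 189 CPM in sinusoids against 8.42 and 4.01 CPM in pericytes, a log2 difference of -4.59 ± 0.47 (adjusted p = 0.00228), beside kdrl and FLT4 above. The co-receptor NRP1 was at 71 and 73.9 CPM in sinusoids against 22.7 and 19 CPM in pericytes (log2 -1.60 ± 0.40, adjusted p = 0.0413), a call lost with no filter, under edgeR, without either pericyte replicate and without sinusoid replicate 2. The exception was the NRP2 copy already given, a co-receptor. VEGFC did not pass the test (log2 0.94 ± 1.12, adjusted p = 0.62): it was at 2.28 and 32.5 CPM in pericytes against 4.79 and 5.17 CPM in sinusoids, and its pericyte libraries lay on either side of the sinusoid libraries. The receptor flt1 was low in all libraries, at 2.77 and 2.34 CPM in sinusoids against 0.71 and 0.57 CPM in pericytes (log2 -1.03 ± 0.53, adjusted p = 0.236). Without either pericyte replicate 2 members were higher. The other 2 were then not tested.

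**Figure D4:**
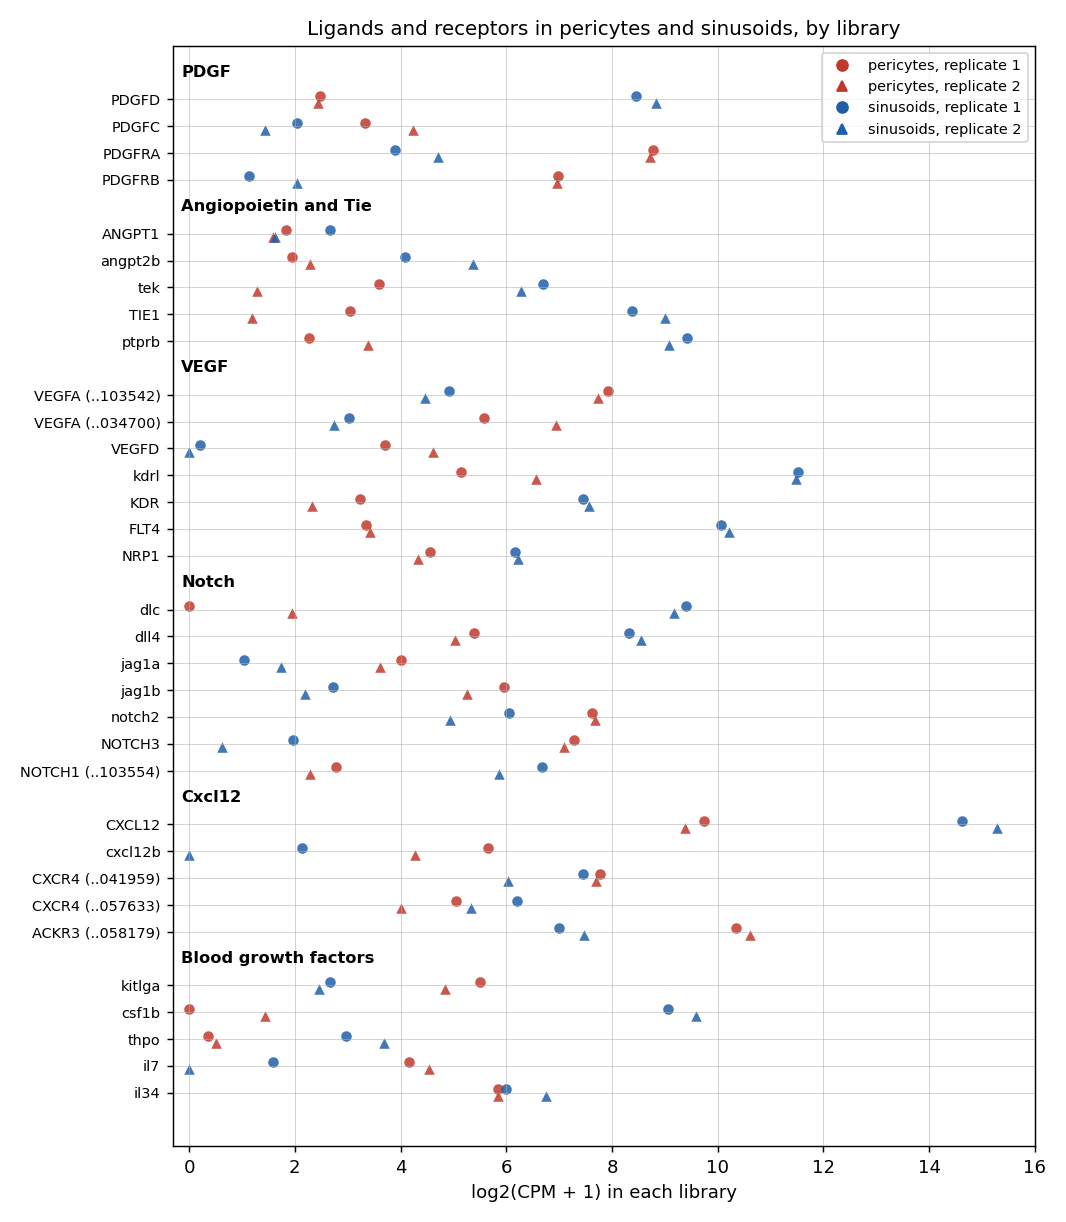
Level of ligands, receptors and blood growth factors in each of the 4 libraries, as log2(CPM + 1), with pericytes in red, sinusoids in blue, replicate 1 as circles and replicate 2 as triangles. PDGFD, TIE1, kdrl, FLT4, dlc, CXCL12 and csf1b lie to the right in sinusoids, and PDGFRA, PDGFRB, both VEGFA copies, NOTCH3 and ACKR3 in pericytes.

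Notch ligands and receptors also differed. Of 25 members, 16 were tested, of which 5 were higher and 5 lower in pericytes, with a median of 1.32, or 2.14 with the members at 0 in one group set to their bound. Beside dlc, the endothelial ligand dll4 was at 321 and 374 CPM in sinusoids against 41.1 and 31.8 CPM in pericytes, a log2 difference of -3.07 ± 0.38 (adjusted p = 0.00449). NOTCH1 in the copy ENSDARG00000103554 was at 101 and 56.9 CPM in sinusoids against 5.85 and 3.87 CPM in pericytes, a log2 difference of -3.59 ± 0.47 (adjusted p = 0.00537). The receptor notch2 was at 196 and 203 CPM in pericytes against 65 and 29.8 CPM in sinusoids, a log2 difference of 2.32 ± 0.37 (adjusted p = 0.0112). Thus dll4 and this NOTCH1 copy were high in sinusoids, and notch2, like NOTCH3, was high in pericytes. The ligand jag1b was at 60.8 and 37.4 CPM in pericytes against 5.61 and 3.57 CPM in sinusoids, a log2 difference of 3.3 ± 0.51 (adjusted p = 0.00964), a call lost without pericyte replicate 1. Its paralogue jag1a was at 15.13 and 11.2 CPM in pericytes against 1.05 and 2.34 CPM in sinusoids and did not pass the test (log2 2.52 ± 0.70, adjusted p = 0.0552). The fringe enzymes, which modify Notch receptors, were split. LFNG was at 194 and 235 CPM in sinusoids against 6.99 and 21.1 CPM in pericytes (log2 -3.86 ± 0.58, adjusted p = 0.00842). The relative mfng was at 68.5 and 123 CPM in sinusoids against 2.28 and 4.58 CPM in pericytes (log2 -4.29 ± 0.61, adjusted p = 0.00716). RFNG was higher in pericytes, at 54 and 48.5 CPM in pericytes against 11.8 and 0.25 CPM in sinusoids (log2 3.91 ± 0.98, adjusted p = 0.0414), a call lost with CPM as deposited, with no filter, with a pseudocount of 0.5, under edgeR and without pericyte replicate 1. Without that replicate, 2 members were higher.

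TGF-beta and BMP genes were called higher in pericytes more than lower. Of 64 members, 46 were tested, of which 17 were higher and 3 lower, with a median of 1.68. FSTL3, a follistatin-like inhibitor of activin, was at 332 and 417 CPM in pericytes against 1.05 and 0 CPM in sinusoids, a log2 difference of 8.18 ± 0.50 (adjusted p = 0.000402). TGFB3, a TGF-beta ligand, was at 233 and 251 CPM in pericytes against 1.65 and 5.05 CPM in sinusoids, a log2 difference of 6.03 ± 0.57 (adjusted p = 0.00163). FSTL1, a secreted follistatin-like protein, was at 74.2 and 50.7 CPM in pericytes against 0 and 0.12 CPM in sinusoids for ENSDARG00000015559, a log2 difference of 5.95 ± 0.62 (adjusted p = 0.0023). These secreted factors were at about 5 CPM or less in both sinusoid libraries. On the sinusoid side, the TGF-beta receptor TGFBR2 in the copy ENSDARG00000059363 was at 20.5 and 16.4 CPM in sinusoids against 0.86 and 0 CPM in pericytes (log2 -3.74 ± 0.70, adjusted p = 0.0173). BMP6, a ligand from liver endothelium that controls iron balance in mammals, was at 82 and 115 CPM in sinusoids against 5.57 and 16.8 CPM in pericytes (log2 -3.03 ± 0.62, adjusted p = 0.0229). Both calls were lost with no filter and under edgeR. The ligand tgfb1b was at 62.4 and 135 CPM in sinusoids against 13.8 and 7.87 CPM in pericytes (log2 -2.87 ± 0.60, adjusted p = 0.0254), a call lost with no filter. Without either pericyte replicate the count of higher members was 8. Of those called with all 4 libraries, 8 were then not tested.

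The CXCL12 and chemokine list, which includes CXCL12 itself, was also divided. Of 36 members, 25 were tested, of which 9 were lower and 4 higher in pericytes, with a median of -1.48. ACKR3, a receptor that removes CXCL12, was at 1303 and 1558 CPM in pericytes against 127 and 176 CPM in sinusoids for ENSDARG00000058179, a log2 difference of 3.41 ± 0.43 (adjusted p = 0.00466). The signalling receptor CXCR4 is held in 2 copies, and neither passed the test. The copy ENSDARG00000041959 was at 219 and 207 CPM in pericytes against 173 and 64.6 CPM in sinusoids (log2 1.16 ± 0.41, adjusted p = 0.105). The copy ENSDARG00000057633 was at 32.3 and 15.2 CPM in pericytes against 72.5 and 39.2 CPM in sinusoids (log2 -1.07 ± 0.48, adjusted p = 0.18). So the abundant ligand gene CXCL12 was higher in sinusoids, and ACKR3 (ENSDARG00000058179) was higher in pericytes. Both were still read in each library of the other group. The chemokine ccl25b was at 57.4 and 106 CPM in pericytes against 2.24 and 4.43 CPM in sinusoids, a log2 difference of 4.36 ± 0.60 (adjusted p = 0.00657). The chemokine cxcl20 was at 39.4 and 64.5 CPM in sinusoids against 0 and 0.72 CPM in pericytes, a log2 difference of -5.19 ± 0.72 (adjusted p = 0.00673). The receptor cxcr3.3 was at 23.9 and 49.2 CPM in sinusoids and at 0 in both pericyte libraries, at least 85-fold lower in pericytes as a ratio of means. Leaving out pericyte replicate 1, sinusoid replicate 1 or sinusoid replicate 2 left 3, 5 and 5 members lower, and 2 members were higher without pericyte replicate 1. The filter left 5 of the lower calls untested without a sinusoid replicate, and 1 of the higher without a pericyte replicate.

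Receptors and enzymes of vessel tone were found in both groups. Of 47 members, 31 were tested, of which 7 were higher and 4 lower in pericytes, with a median of 0.12. S1PR2, a receptor of the lipid mediator S1P, was at 329.6 and 272 CPM in pericytes against 8.3 and 2.03 CPM in sinusoids, a log2 difference of 5.99 ± 0.51 (adjusted p = 0.00111). Another S1P receptor, s1pr5a, was at 324 and 490.0 CPM in sinusoids against 37.7 and 24.3 CPM in pericytes, a log2 difference of -3.51 ± 0.46 (adjusted p = 0.00531). S1PR2 and s1pr5a thus stood on opposite sides, and other S1P receptors are not given here. AGTR2, an angiotensin receptor, was at 101 and 119 CPM in pericytes against 1.05 and 1.05 CPM in sinusoids, a log2 difference of 5.87 ± 0.50 (adjusted p = 0.00111). AGTR1 in the copy ENSDARG00000045443 was at 48.5 and 14.3 CPM in sinusoids against 0 and 2.15 CPM in pericytes (log2 -3.84 ± 0.86, adjusted p = 0.0302), a call lost with no filter, under edgeR and without pericyte replicate 1. PTGS2, the inducible cyclooxygenase, was at 202 and 385 CPM in pericytes against 10.9 and 25.4 CPM in sinusoids for ENSDARG00000004539, a log2 difference of 4.13 ± 0.61 (adjusted p = 0.00791). The natriuretic peptide receptor npr2 was at 39 and 52.3 CPM in pericytes against 0.52 and 0 CPM in sinusoids, a log2 difference of 5.35 ± 0.64 (adjusted p = 0.00401). The peptide gene nppb was at 11.6 and 42.3 CPM in sinusoids and at 0 in both pericyte libraries. As a ratio of means it was at least 62.7-fold lower in pericytes, a call lost with no filter.

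Adhesion genes for leukocytes were called in both directions, 6 of 37 tested members higher and 4 lower in pericytes (47 in all). Their median was 1.45, and over all tested genes 10% were called higher and 5.66% lower. Beside sele and MCAM, the adhesion molecule vcam1b was at 186 and 235 CPM in sinusoids against 22.8 and 21.1 CPM in pericytes, a log2 difference of -3.04 ± 0.40 (adjusted p = 0.00552). The integrin chain ITGA9 was at 23.3 and 22.3 CPM in pericytes against 0.15 and 0 CPM in sinusoids, a log2 difference of 4.57 ± 0.65 (adjusted p = 0.00716). The epithelial integrin chain ITGB4 was at 61.5 and 99.7 CPM in pericytes against 4.86 and 0 CPM in sinusoids (log2 5.24 ± 0.84, adjusted p = 0.0108), a call made by neither edgeR nor DESeq2. Both integrins were therefore on the pericyte side and vcam1b on the sinusoid side. Without either pericyte replicate, 2 adhesion genes were higher. Of the 6, 1 was then not tested.

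In blood clotting, 10 of 23 tested genes were higher and 2 lower in pericytes (33 in all), while the median of -0.29 had the opposite sign. Tissue factor, f3b, which starts clotting when blood leaves a vessel, was at 1499 and 3049.6 CPM in pericytes against 37.6 and 54.7 CPM in sinusoids, a log2 difference of 5.69 ± 0.51 (adjusted p = 0.00139). ANXA2, a cell-surface docking protein for plasminogen, was at 1652 and 2499 CPM in pericytes against 40.9 and 86.8 CPM in sinusoids, a log2 difference of 5.23 ± 0.55 (adjusted p = 0.0025). F13A1, the cross-linking factor of fibrin, was at 241 and 158 CPM in pericytes against 0.60 and 3.51 CPM in sinusoids for ENSDARG00000045453, a log2 difference of 6.27 ± 0.65 (adjusted p = 0.00228). Each stood far higher in both pericyte libraries. TFPI, the inhibitor of tissue factor, was at 89.8 and 70.0 CPM in pericytes against 7.55 and 0.62 CPM in sinusoids, a log2 difference of 4.62 ± 0.74 (adjusted p = 0.0111). Lower in pericytes, beside vwf, was the fibrinogen chain FGB, a gene of liver, at 100.1 and 14.1 CPM in sinusoids against 0.14 and 0.29 CPM in pericytes (log2 -4.91 ± 0.89, adjusted p = 0.0163). Its sinusoid libraries differed severalfold from each other. Without sinusoid replicate 1 or 2 the count of lower members was 4 and 5.

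Inflammatory mediators were called in both directions, 9 of 45 tested members lower and 8 higher in pericytes (52 in all), with a median of -0.79. The cytokine gene il1b was at 859.6 and 1139 CPM in sinusoids against 25.8 and 10.4 CPM in pericytes, a log2 difference of -5.66 ± 0.51 (adjusted p = 0.0014). Tumour necrosis factor, tnfa, was at 24.4 and 55.4 CPM in sinusoids against 0.29 and 0.57 CPM in pericytes, a log2 difference of -4.63 ± 0.76 (adjusted p = 0.0118). The gene tnfaip2b, named for induction by that factor, was at 3466 and 4358 CPM in sinusoids against 33.1 and 55.4 CPM in pericytes, a log2 difference of -6.31 ± 0.45 (adjusted p = 0.000617). All 3 were higher in both sinusoid libraries than in both pericyte libraries. On the pericyte side, the matrix protease MMP14 was at 528 and 556 CPM in pericytes against 0.15 and 0.62 CPM in sinusoids for ENSDARG00000002235, a log2 difference of 8.71 ± 0.44 (adjusted p = 0.000222). The cytokine gene il15, which sustains lymphocytes, was at 33.8 and 49.4 CPM in pericytes against 0.52 and 0 CPM in sinusoids, a log2 difference of 5.21 ± 0.66 (adjusted p = 0.00473). Without pericyte replicate 1 or 2 the number of members called higher was 3 and 2. In each of these, 4 members called with all 4 libraries were not tested.

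Genes of the immediate early and stress response were called higher in pericytes more than lower, 21 against 3 of 49 tested members (52 in all), with a median of 1.53. The list summed to 120225 and 120550 CPM in pericytes against 29473 and 39100 CPM in sinusoids. The groups differ in sort as well as in cell type, and the part of each in these levels cannot be told apart. The transcription factor egr1 was at 3026 and 1980.4 CPM in pericytes against 208 and 142 CPM in sinusoids, a log2 difference of 3.98 ± 0.38 (adjusted p = 0.00178). KLF4 was at 77.4 and 39.09 CPM in pericytes against 0.90 and 1.85 CPM in sinusoids, a log2 difference of 4.69 ± 0.64 (adjusted p = 0.00625). IER5 was at 91.8 and 116 CPM in pericytes against 8.45 and 11.9 CPM in sinusoids, a log2 difference of 3.39 ± 0.46 (adjusted p = 0.00629). For these 3 genes both pericyte libraries stood above both sinusoid libraries. On the sinusoid side, DDIT4, an inhibitor of mTOR signalling, was at 52.4 and 97.3 CPM in sinusoids against 0.29 and 0 CPM in pericytes (log2 -5.91 ± 0.70, adjusted p = 0.00381). DUSP6, a feedback phosphatase of ERK, was at 160.5 and 135 CPM in sinusoids against 3.71 and 5.44 CPM in pericytes (log2 -4.60 ± 0.43, adjusted p = 0.00154). The flow-responsive endothelial factor klf2b was at 308 and 607 CPM in sinusoids against 50.4 and 40.8 CPM in pericytes (log2 -3.07 ± 0.51, adjusted p = 0.0119). Leaving out pericyte replicate 1 or 2 gave 10 and 11 members higher. The lower members numbered 6 without sinusoid replicate 1.

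Genes of blood stem and progenitor cells were called in both directions, 5 of 24 tested members lower and 4 higher in pericytes (29 in all), with a median of 0.25. Beside cd34 and egr1, the homeobox factor MEIS1 was higher, at 169 and 182 CPM in pericytes against 16.6 and 18.3 CPM in sinusoids (log2 3.42 ± 0.38, adjusted p = 0.00301). LMO2, a partner of TAL1 in both endothelium and blood, was at 43.5 and 43.5 CPM in sinusoids against 5.99 and 2.15 CPM in pericytes (log2 -3.11 ± 0.60, adjusted p = 0.0195). TAL1 itself was at 76.7 and 49.3 CPM in sinusoids against 13.4 and 5.01 CPM in pericytes (log2 -2.60 ± 0.54, adjusted p = 0.0246), a call lost with no filter, under edgeR and without pericyte replicate 2. LMO2 and TAL1 are also endothelial genes, and both were higher in both sinusoid libraries. Leaving out any 1 of the 4 libraries left 3 members lower, and edgeR called 2. Without a sinusoid replicate, 2 of the lower calls were not tested.

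Marker genes of other kidney cells were present in all 4 libraries, and their part in the differences above was not tested. Their counts stand beside 10% called higher and 5.66% called lower over all tested genes. The summed level of 40 macrophage markers was 5268 and 6192 CPM in pericytes, against 2824 and 2386 CPM in sinusoids. Of 29 tested, 5 were higher and 1 lower in pericytes, with a negative median of -0.93. The higher ones were antigen presentation genes and copies of MFAP4. Among them, cd74a and 1 MFAP4 copy made up a large part of the summed level in pericytes. The class II chaperone cd74a was at 2432 and 3251 CPM in pericytes against 172 and 214 CPM in sinusoids, a log2 difference of 4.03 ± 0.43 (adjusted p = 0.00262). The class II gene mhc2dab was at 87.2 and 85.3 CPM in pericytes and at 0 in both sinusoid libraries, at least 385-fold higher as a ratio of means. In contrast MPEG1, a pore-forming protein of macrophages, was at 145 and 259 CPM in sinusoids against 18.7 and 10.02 CPM in pericytes for ENSDARG00000043093, a log2 difference of -3.57 ± 0.54 (adjusted p = 0.00884). The leukocyte gene ptprc was at 237 and 118 CPM in sinusoids against 58.7 and 66.9 CPM in pericytes and did not pass the test (log2 -1.24 ± 0.36, adjusted p = 0.0643). The MFAP4 copies ENSDARG00000116066 and ENSDARG00000111491, of 8 with that symbol, were higher in pericytes, the first at 491 and 835 CPM in pericytes against 1.65 and 0.31 CPM in sinusoids (log2 8.58 ± 0.49, adjusted p = 0.000301). Without sinusoid replicate 1 or 2, 5 macrophage markers were lower, and without pericyte replicate 2, 3.

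Neutrophil markers summed to 1855 and 1360.0 CPM in pericytes, against 4847 and 1805 CPM in sinusoids, with 3 of 14 lower and none higher (limma; 1 higher at an unadjusted p under 0.05, 0 by edgeR and 0 by DESeq2). Without sinusoid replicate 2, 5 neutrophil markers were lower, without sinusoid replicate 1, 3 were higher, and edgeR called 0 lower. Lysozyme, lyz, was at 0.14 and 0.14 CPM in pericytes against 2.24 and 0.18 CPM in sinusoids, so it made up little of these sums. Whether the other members were read from neutrophils was not tested. Erythroid markers summed to 612 and 834 CPM in pericytes, against 3788 and 1387 CPM in sinusoids, with 3 of 20 lower and none higher (limma; 0 higher at an unadjusted p under 0.05, 0 by edgeR and 0 by DESeq2). The erythroid count rested on single libraries: 0 were lower without pericyte replicate 1, 9 without sinusoid replicate 2 and 1 by edgeR. The haemoglobin gene hbaa1 was at 1032 and 483 CPM in sinusoids against 145 and 240.0 CPM in pericytes. B cell markers summed to 166 and 126 CPM against 360.0 and 292 CPM in sinusoids, with 3 of 13 higher and 1 lower, and without pericyte replicate 1 or 2 none was called, with 1 of the higher ones not tested. Without sinusoid replicate 1, 2 B cell markers were lower, and without sinusoid replicate 2, 0. T and NK cell markers summed to 819 and 665 CPM against 324 and 249 CPM, with a large part of each sum from DUSP2, an immediate early phosphatase at 730.2 and 590.2 CPM in pericytes against 206 and 114 CPM in sinusoids, which was higher in pericytes as the only one of 12 called, with none lower (limma; 0 lower at an unadjusted p under 0.05, 0 by edgeR and 0 by DESeq2). A call of 1 lower member appeared without sinusoid replicate 1. Thrombocyte markers summed to 527 and 496 CPM against 1742 and 1422 CPM, with 3 of 15 higher and 2 lower, and 1 higher without pericyte replicate 2, where 1 of the higher ones was not tested.

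**Figure D5:**
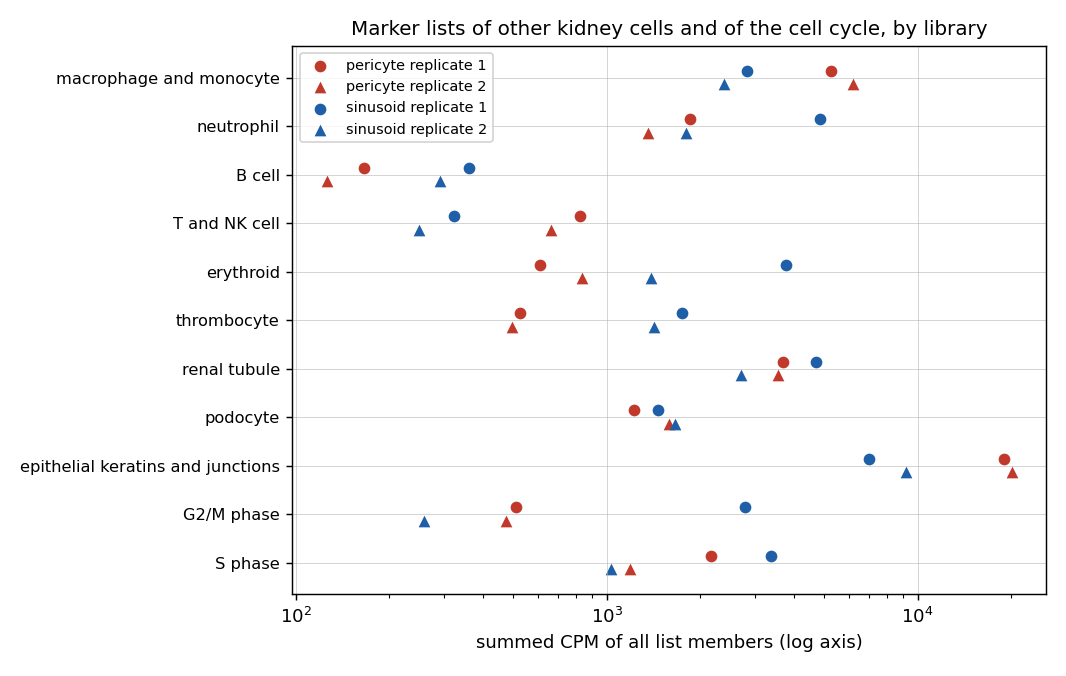
Summed CPM, on a log axis, of all members of marker lists for other kidney cells and of the cell cycle lists in each of the 4 libraries, with pericytes in red, sinusoids in blue, replicate 1 as circles and replicate 2 as triangles. The cell cycle sums of sinusoid replicate 1 lie to the right of the other 3 libraries, while the keratin sums are highest in both pericyte libraries.

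Sinusoid replicate 1 stood apart in genes of the cell cycle, beside the larger sums of the neutrophil and erythroid lists already given. Its 54 G2/M phase genes summed to 2794 CPM, beside 258 CPM in sinusoid replicate 2 and 513 and 474 CPM in pericytes. CCNB1, a mitotic cyclin, was at 389.5 and 7.14 CPM in the sinusoid libraries. Of 43 tested G2/M genes, 1 was lower in pericytes, CKS1B, and none higher (limma; 0 higher at an unadjusted p under 0.05, 0 by edgeR and 0 by DESeq2). Without sinusoid replicate 2 the number lower was 16, and it was 0 without sinusoid replicate 1 or either pericyte replicate, CKS1B not being tested without a sinusoid replicate. Without sinusoid replicate 1, 1 G2/M gene was higher. S phase genes summed to 3376 and 1036 CPM in sinusoids, against 2162 and 1187 CPM in pericytes, with 1 of 54, DUT, higher and none lower (limma; 3 lower at an unadjusted p under 0.05, 0 by edgeR and 2 by DESeq2). Without sinusoid replicate 2, 9 S phase genes were lower, without pericyte replicate 1, 2 were lower, and without sinusoid replicate 1, 2 were higher. The CKS1B call was lost with CPM as deposited, with no filter, with a pseudocount of 5, under edgeR, under DESeq2 and without either pericyte replicate. The DUT call was lost with CPM as deposited, with no filter, under edgeR and without pericyte replicate 2.

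Some tubule genes also differed between the sinusoid libraries. The 49 tubule markers summed to 4712 and 2703 CPM in sinusoids, against 3682 and 3548 CPM in pericytes. SLC5A12, a lactate transporter of proximal tubule, was at 160.4 and 0.18 CPM in sinusoids against 2.71 and 0 CPM in pericytes. CDH17, a cadherin of the zebrafish kidney tubule, was at 366 and 0.12 CPM in sinusoids against 70.7 and 142 CPM in pericytes. Both were high in sinusoid replicate 1 and nearly absent from sinusoid replicate 2. Over all 37 tested tubule genes, 1 was higher and 1 lower in pericytes. Without sinusoid replicate 2, 12 were lower, and without sinusoid replicate 1, 10 were higher and 3 lower, so the balance of calls in the list depended on which sinusoid library was kept, and without pericyte replicate 1 the gene called higher was not tested and the one called lower was lost. The tubule gene called higher was AQP3, a water and glycerol channel also found in skin and other epithelia, at 745 and 1147 CPM in pericytes against 0.75 and 0 CPM in sinusoids for ENSDARG00000003808, a log2 difference of 9.59 ± 0.46 (adjusted p = 0.000216).

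The pericyte libraries also carried keratin and podocyte list genes. Of 18 tested epithelial genes (43 in all), 7 were higher and 1 lower in pericytes, with a median of 2.42, and the list summed to 18901 and 20146 CPM against 6984 and 9210.0 CPM. The keratin krt94 was at 10102 and 10789.9 CPM in pericytes against 335 and 333 CPM in sinusoids, a log2 difference of 5.12 ± 0.44 (adjusted p = 0.00122). The keratin krt4 was at 808 and 778 CPM in pericytes against 2.02 and 2.65 CPM in sinusoids, a log2 difference of 8.03 ± 0.39 (adjusted p = 0.000216). In contrast krt18a.1 was at 511 and 711 CPM in sinusoids against 81.8 and 86.6 CPM in pericytes, a log2 difference of -2.67 ± 0.41 (adjusted p = 0.00919). Other epithelial genes differed in level. The gene epcam was at 0.29 and 0 CPM in pericytes against 0 and 0 CPM in sinusoids. The keratin krt5 was at 0 in all 4 libraries. The cadherin cdh1 was at 88.1 and 127 CPM in pericytes against 43.9 and 0.37 CPM in sinusoids.

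Of 17 tested podocyte list genes (21 in all), 10 were higher and 1 lower in pericytes, with a median of 3.39. The summed level of the list was not higher in pericytes, at 1228 and 1588 CPM against 1468 and 1661 CPM in sinusoids. Several of these, such as wt1b, the VEGFA copies and FOXC1, are shared with other mesenchyme. LMX1B in the copy ENSDARG00000068365 was at 42.5 and 52.4 CPM in pericytes against 0.90 and 0 CPM in sinusoids, a log2 difference of 5.28 ± 0.65 (adjusted p = 0.00438). NPHS1, which encodes nephrin of the podocyte slit diaphragm, was at 2.71 and 29.8 CPM in pericytes against 2.02 and 0.060 CPM in sinusoids. It was higher in pericyte replicate 2 than in the other 3 libraries. Leaving out sinusoid replicate 1 gave 2 lower podocyte list genes. The podocyte list gave 5 and 6 higher members without pericyte replicate 1 or 2, where 4 of the 10 were not tested. Of 34 tested housekeeping genes, 1 was called, the ribosomal gene rps3, at 1256 and 1932 CPM in pericytes against 576 and 474 CPM in sinusoids, a call lost with no filter, under edgeR and without either pericyte replicate. With a sinusoid replicate left out, 2 and 3 housekeeping genes were higher and 3 were lower in each case.

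Markers of each labelled cell type were thus present, with PDGFRB, NOTCH3 and RGS5 higher in the libraries labelled pericytes and cdh5, kdrl, stab1 and stab2 in those labelled sinusoids, while rgs5b overlapped and MCAM and 1 EPAS1 copy of the mural list were higher in sinusoids. PDGFRB, stab1 and stab2 only check the sort. The libraries labelled pericytes in addition carried the fibroblast-type genes DCN, COL1A1, LUM and PDGFRA, and these 4 were called higher in all 13 other settings. Whether these transcripts came from the same cells as PDGFRB cannot be told from bulk libraries.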

How the data were processed

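RNA was measured in 12 libraries, of which the 2 pericyte and the 2 sinusoid libraries were compared, grouped by title and cell type. The authors deposited 1 table per library of CPM for 32047 gene identifiers. HISAT2 2.1.0, Subread 1.6.4 and the genome build GRCz11 are named, per the submitters' processing notes; how each was set, and in which order, is not given in the sources used here. Symbols came from a table of gene names that matched 28978 identifiers. The CPM steps gave whole reads for 100% of values within 0.1 read, and 54.26% to 61.04% of these counts were even.

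Genes with at least 1 CPM in 2 of the 4 libraries were tested with limma 3.58.1 (R 4.3.3) on log2(CPM + 1) after TMM scaling, with factors of 0.961, 0.93, 1.23 and 0.907. Adjustment was Benjamini-Hochberg over 14854 genes, with a threshold of 0.05. An exact permutation test of 2 against 2 libraries cannot go below p = 0.333 and was not used. edgeR 4.0.16 and DESeq2 1.42.0 on the whole reads were alternatives. The PCR reads carry no molecular identifiers, so floors of 3 reads cover counting error at most. Why most of the whole-read counts were even was not tested, and the floors take no account of it. A fold given as at least is the mean of the group that was read over the higher 3-read level of the other group. It is a ratio of means, and a single library can lie below it. Whether the counting used strand is not given in the sources used here, so genes that overlap others, and copies that share a symbol, are uncertain.

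A list was described by its called members in each direction and its median. The filter admits genes through the group where they are high, so counts over tested members are descriptions. Named were a set of key genes and pathway ligands and receptors. Of each list, up to 4 called members in the main direction and up to 3 in the other were named. So were the 10 largest differences in each direction among called genes with a symbol and without overlap. Others, in the text and plots, were chosen after their values were seen (among them KCNJ8, rgs5b, LUM, FN1, SPARC, COL4A1, LAMP2, il7, il34, ptprc, lyz, CCNB1, SLC5A12, CDH17, NPHS1, epcam and cdh1). The comparison and the lists were chosen with earlier results of these data known. Same-numbered libraries did not deviate together (r = -0.0135 across genes), so the numbers were not treated as pairs.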

Additional observations from a re-analysis of the deposited data

How the results depend on the processing

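With 2 libraries a group, the number of calls depended on the setting. None of the 2332 genes called in the main fit changed sign where tested under the 13 other settings. Those settings reuse the same libraries, and a gene called from 2 against 2 has little room to turn. The unchanged sign is therefore no separate check of direction. The 2332 calls (1492 higher and 840 lower in pericytes) became 1068 (708 and 360) with no filter on low values, 1247 (827 and 420) with edgeR on the whole reads and 4149 (2481 and 1668) with the 6 niche libraries in 1 fit. Leaving out 1 library in turn gave 1121 to 2684 calls, 568 to 1697 higher and 553 to 987 lower, with the lowest counts without pericyte replicate 1 (1121) and without pericyte replicate 2 (1193). Part of that drop is built in: the filter left 617 of the higher calls untested without a pericyte replicate and 191 of the lower calls without a sinusoid replicate. The lower calls lost without a pericyte replicate were all tested there. Such a fit assumes that the lone library varies like the other group. All 1247 genes called by edgeR were also called by limma, and DESeq2 called 2972. The replicate number as a block gave 2804 calls, but the labels do not say that a number marks a shared fish or day, so the block says nothing about pairing. Without TMM scaling the median difference of all genes moved by -0.14 and 2171 genes were called, 56.2% of them higher instead of 64.0%. Called members of the lists, 382 genes in all, fell to 246 with no filter, and leaving out 1 library gave 234 to 420. Of the genes named in the text 149 passed the test, and 109 to 141 did with 1 library left out. Setting list members at 0 in one group to their bound moved the median of the stromal matrix list from 4.02 to 4.43, that of the niche factors by 0.53 and that of the Notch list by 0.81.

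The named genes whose direction turned had not passed the test with all 4 libraries. CDH17 had a log2 difference of -0.41 under edgeR and -0.31 under DESeq2, and between -1.51 (without sinusoid replicate 2) and 6.48 (without sinusoid replicate 1) with 1 library left out, and passed the test at both ends. COL4A1 was at 0.28 under edgeR and 0.33 under DESeq2, and between -1.51 and 1.18 with 1 library left out. With 1 library left out, rgs5b ranged from -0.81 to 0.64, TAGLN (ENSDARG00000033466) from -0.79 to 0.49, ANGPT1 from -0.68 to 0.05, CCNB1 from -4.75 to 0.45, VEGFC from -0.71 to 2.72 and il34 from -0.95 to 0.20. The cause was not tested. A gene at 0 is only limited to the level of 3 reads in that library.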
